A study of Homo sapiens with 9 samples.

Results

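Collagen genes were followed in MDA-MB-231, an established line of human triple-negative breast carcinoma. A gene was counted as a collagen gene when its symbol had the form COL, number, A, number and when it had at least 1 protein-coding transcript, which gave 44 of the 58219 genes in the files. RNA was sequenced from 9 libraries in 3 groups of 3: shAPT1 cells, stably infected with a lentivirus for a short hairpin RNA against APT1 and selected with puromycin; APT1wt cells, stably overexpressing wild-type APT1 from a lentivirus; and control cells with a lentiviral scrambled RNA. APT1, encoded by LYPLA1, is an enzyme that takes palmitate off proteins, and the study concerned how Notch and Wnt signalling are partitioned when a cell divides. All groups were grown in DMEM with fetal bovine serum. The labels give neither whether a line was 1 clone nor whether each library had its own culture. The p-values therefore cover the spread between these libraries alone, and that spread may be technical.

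Collagens are proteins of 3 chains wound into a triple helix, made of 1 kind of chain or of several. Fibrillar collagens (types I, II, III, V, XI, XXIV and XXVII) build banded fibrils, type IV collagen forms the sheet of basement membranes, and type VII collagen forms the anchoring fibrils that tie an epithelial basement membrane to the stroma below it. Type VI collagen forms beaded filaments, the fibril-associated collagens (FACIT) decorate fibrils, type VIII collagen forms short-chain networks, types XIII and XVII span the plasma membrane, and types XV and XVIII are the multiplexins. Most stromal collagen of a breast tumour is made by fibroblasts, while carcinoma cells themselves can make basement membrane and anchoring chains, among others.

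Libraries held 12381931 to 18667383 estimated reads. LYPLA1 stood at 30.5 to 38.2 TPM in shAPT1, 169 to 171 TPM in APT1wt and 80.5 to 92.7 TPM in control libraries, which follows the labels; TPM is a share of a library corrected for transcript length. Summed reads of LYPLA1 differed less in APT1wt, at 1.52-fold control (0.60 ± 0.06, log2, edgeR, adjusted p = 1.14e-05), and were 0.41-fold control in shAPT1 (-1.29 ± 0.07, adjusted p = 1.97e-08). Within each group the libraries differed beyond counting noise, most of all shAPT1 replicate 1, with a chi-square per gene of 12.3 and 18.3 against the other 2 shAPT1 libraries and 2.1 to 8.49 for the other 7 pairs. Of 10 fibroblast and pericyte markers that are not collagens, 6 were under 1 TPM in every library (PDGFRA, DCN, LUM, THY1, FAP and POSTN), and the 10 together summed to 8.74 to 17.7 TPM in shAPT1, 16.8 to 24.5 TPM in APT1wt and 17.5 to 18.7 TPM in control libraries. That sum hides opposite changes. PDGFRB was higher than in control in shAPT1 (1.39 ± 0.21, edgeR, adjusted p = 0.000271) and in APT1wt (1.14 ± 0.21, adjusted p = 0.00147). FBLN1 was lower than in control in shAPT1 (-1.14 ± 0.15, adjusted p = 9.94e-05) and did not pass in APT1wt (0.10 ± 0.14, adjusted p = 0.651). RGS5 passed in neither (adjusted p = 0.313 and 0.104). Of 7 endothelial markers, CDH5 and VWF were under 1 TPM in every library. The 7 summed to 63.0 to 80.3 TPM in shAPT1, 105 to 110 TPM in APT1wt and 45.7 to 53.1 TPM in control libraries, nearly all of it ESAM, a junction protein. Against control, ESAM was higher in shAPT1 (0.44 ± 0.08, edgeR, adjusted p = 0.00172) and in APT1wt (1.23 ± 0.08, adjusted p = 2.18e-07). TIE1 was higher in shAPT1 (2.08 ± 0.26, adjusted p = 6.03e-05) and not in APT1wt (0.76 ± 0.29, adjusted p = 0.0736). KDR was lower in APT1wt (-0.55 ± 0.18, adjusted p = 0.0364). Of 7 leukocyte markers, 4 were under 1 TPM in every library, and the sum, mostly CD74, was 234 to 266 TPM in shAPT1, 262 to 317 TPM in APT1wt and 370 to 479 TPM in control libraries. LCP1, an actin-bundling protein on the same list, went the other way, at 36.4 to 47.7 TPM in shAPT1, 54.8 to 71.9 TPM in APT1wt and 9.46 to 10.8 TPM in control libraries. The part of these markers in the collagen results was not tested.

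Several collagen genes lie beside each other. COL4A1 (chromosome 13, 110148963 to 110307233, minus strand, GENCODE 29 on GRCh38) and COL4A2 (110305812 to 110513209, plus strand) stand head to head, as do COL4A4 with COL4A3 on chromosome 2 and COL4A6 with COL4A5 on the X chromosome. COL6A1 and COL6A2 follow each other on the plus strand of chromosome 21, 93047 bp apart. COL7A1 (chromosome 3, 48564073 to 48595267, minus strand) has no collagen neighbour. The promoter windows of COL7A1 and of the shared COL4A1 and COL4A2 start region follow, from 250 bases before to 50 bases after the RefSeq start (RefSeq, GRCh38.p14). In the COL7A1 window, chr3:48595280-48595579 on the minus strand, capitals mark the 3 matches to GGGCGG, the letters of a GC box, on either strand. In the COL4A2 window, chr13:110307034-110307333 on the plus strand, capitals mark the stretch from the COL4A1 start, at 110307157, to the COL4A2 start, at 110307284, 127 bp apart.
COL7A1: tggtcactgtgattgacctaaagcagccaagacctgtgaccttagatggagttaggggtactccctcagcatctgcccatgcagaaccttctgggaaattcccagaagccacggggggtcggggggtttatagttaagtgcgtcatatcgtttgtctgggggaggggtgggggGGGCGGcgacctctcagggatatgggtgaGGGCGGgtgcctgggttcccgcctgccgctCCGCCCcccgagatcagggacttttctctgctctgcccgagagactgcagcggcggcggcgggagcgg
COL4A2: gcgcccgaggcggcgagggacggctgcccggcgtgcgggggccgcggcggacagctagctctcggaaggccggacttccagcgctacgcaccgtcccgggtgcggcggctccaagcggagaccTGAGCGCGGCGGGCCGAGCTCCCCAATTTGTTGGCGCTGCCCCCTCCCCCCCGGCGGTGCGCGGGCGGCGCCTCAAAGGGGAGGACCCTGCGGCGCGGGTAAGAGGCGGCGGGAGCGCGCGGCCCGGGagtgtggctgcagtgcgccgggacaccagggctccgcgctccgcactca
GGGCGG was present in 45.0% of all 35116 RefSeq windows of this length and in 24 of 44 windows that belonged to 32 of the collagen genes. CCAAT was present in 34.6% of all windows, once in the COL4A2 window and not in that of COL7A1. TATAAA was present in 11.5% of all windows, once in the COL7A1 window and not in that of COL4A2. The letters TGANTCA (AP-1, 7.71% of all windows) and GGAATG (TEAD, 14%) were in neither, and all 5 motifs were sought on both strands.

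Collagen transcripts took up a larger part of the RNA in both manipulated groups than in control. The 44 genes together held 0.146% to 0.165% of reads in shAPT1, 0.178% to 0.213% in APT1wt and 0.104% to 0.116% in control libraries, so that the 3 groups did not overlap. More of a cell type and more RNA per cell cannot be told apart in RNA from bulk cells. In TPM their sum was 519.6 ± 46.8 in shAPT1, 624 ± 53.6 in APT1wt and 394.9 ± 16.3 in control cells (SD, n = 3 each). Their coding transcripts alone summed to 371 to 442 TPM in shAPT1, 410 to 480 TPM in APT1wt and 264 to 292 TPM in control libraries. On that basis shAPT1 and APT1wt overlapped, and both lay above control. Of the 44, 21 had enough reads to be tested, 18 had a mean of at least 1 TPM in some group, and 11 a mean of at least 10 TPM.

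In shAPT1 against control, 11 of the 21 tested collagen genes passed edgeR's quasi-likelihood test at an adjusted p of 0.05, 8 higher and 3 lower, where 24.4% of all 15233 tested genes passed (12.8% higher and 11.6% lower). In APT1wt against control 14 passed, 11 higher and 3 lower, where 23.4% of all tested genes passed (11.8% higher and 11.6% lower). In shAPT1 against APT1wt 16 passed, 6 higher and 10 lower, where 25.1% of all tested genes passed (12.7% higher and 12.4% lower). Scaled to library totals alone, that last split was 6 higher and 7 lower among the collagens and 2628 higher and 1327 lower among all genes, in place of 1941 and 1888. The median log2 fold change of the 21 genes was 0.04 in shAPT1 against control, 0.47 in APT1wt against control and -0.35 in shAPT1 against APT1wt, while that of all tested genes lay within 0.004 of 0 in each. Collagen genes are also among the more deeply read: of the 11 with a mean of at least 500 reads, 8 passed in shAPT1 against control, 8 in APT1wt against control and 9 in shAPT1 against APT1wt, where 32.1%, 28.4% and 32.2% of all 6154 genes read as deeply passed. Without shAPT1 replicate 1 the counts were 11, 15 and 13. Both comparisons with control use the same 3 control libraries, and the 3 contrasts come from 1 fit.

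**Figure D1:**
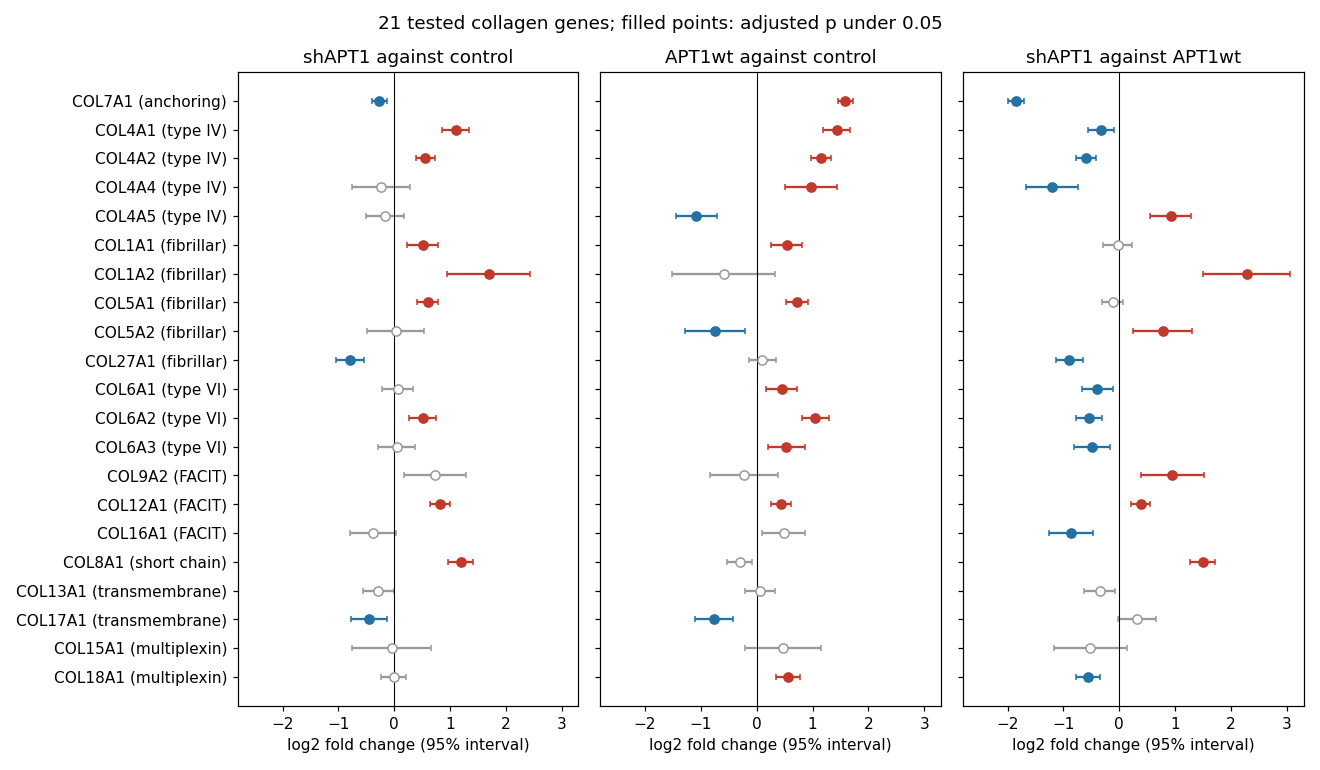
Log2 fold changes (x axis, with 95% interval) of the 21 tested collagen genes (rows, with class) in 3 comparisons (panels); filled points passed an adjusted p of 0.05, red for higher and blue for lower. COL7A1 lies at -0.27, 1.58 and -1.85, and COL8A1 at 1.19, -0.30 and 1.49.

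COL7A1, the chain of the anchoring fibril, had the smallest p of the tested collagen genes in APT1wt against control and in shAPT1 against APT1wt. It stood at 42.2, 45.3 and 45.4 TPM in shAPT1 libraries, at 140.8, 167.9 and 140.5 TPM in APT1wt libraries, and at 51.6, 52.1 and 54.7 TPM in control libraries. The 3 groups did not overlap, with every APT1wt library far above the rest and every shAPT1 library a little below control. COL7A1 was 3.0-fold higher in APT1wt than in control (log2 fold change 1.58 ± 0.06, SE; edgeR, adjusted p = 3.02e-09), with the second smallest p of all 15233 genes, and in shAPT1 against APT1wt (-1.85 ± 0.06, adjusted p = 4.97e-10) it had the smallest. In shAPT1 it was lower than in control by a smaller margin (-0.27 ± 0.06, edgeR, adjusted p = 0.00763). That smaller difference did not pass once GC content and length were corrected for (-0.08, adjusted p = 0.388, a correction added after the data were seen). Its transcript is 64.8% G and C, against a median of 48.3% over tested genes and 59.0% over the tested collagens.

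The higher COL7A1 mean in APT1wt was present in the full-length coding transcript and in the partial ones with a mean of at least 1 TPM in a group. The protein-coding ENST00000328333.12 (9276 nt, 118 exons) stood at 15.9, 15.4 and 18.1 TPM in shAPT1, at 55.5, 61.6 and 54.3 TPM in APT1wt and at 17.6, 20.4 and 18.1 TPM in control libraries. APT1wt stood clear of both other groups, while shAPT1 and control overlapped. Of the transcripts annotated as retaining an intron, ENST00000465238.5 (587 nt) was at 7.53, 7.87 and 7.24 TPM in shAPT1, at 27.1, 36.9 and 35.1 TPM in APT1wt and at 13.4, 15.9 and 11.6 TPM in control libraries, with no overlap between groups. ENST00000487017.5 (5807 nt) was at 4.49 to 5.77 TPM in shAPT1, 14 to 18.5 TPM in APT1wt and 5.37 to 6.19 TPM in control libraries. The short transcripts carry much of the TPM on few reads, since TPM divides by length.

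**Figure D2:**
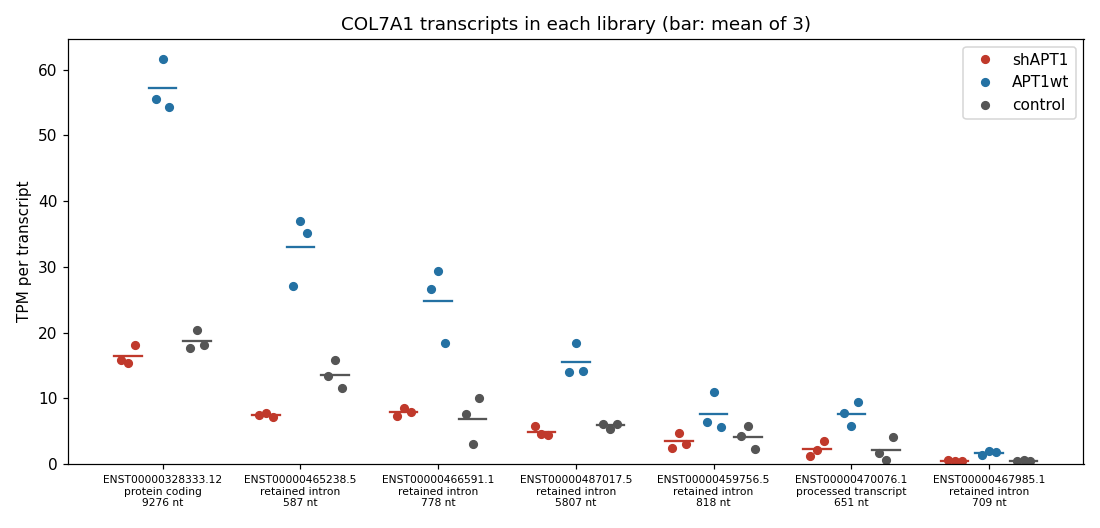
TPM (y axis) of 7 COL7A1 transcripts (x axis, with annotated type and length) in each library; bars are means of 3. The APT1wt points lie above the shAPT1 and control points for the 9276 nt coding transcript, at 54.3 to 61.6 TPM.

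The 2 main chains of basement membranes, COL4A1 and COL4A2, which join as 2 of the first and 1 of the second, were higher in both manipulated groups. COL4A1 stood at 46.6, 38.4 and 43.3 TPM in shAPT1, at 41.1, 55.7 and 54.3 TPM in APT1wt and at 15.7, 20.1 and 20.05 TPM in control libraries. Control lay below every other library, while shAPT1 and APT1wt overlapped. COL4A1 was 2.14-fold higher in shAPT1 than in control (1.10 ± 0.11, edgeR, adjusted p = 8.7e-06) and 2.69-fold higher in APT1wt than in control (1.43 ± 0.11, edgeR, adjusted p = 7.71e-07). The difference of -0.33 ± 0.11 between shAPT1 and APT1wt passed by little (edgeR, adjusted p = 0.0378) and did not pass without any 1 of control replicates 2 and 3, shAPT1 replicates 2 and 3 and APT1wt replicates 2 and 3 (-0.33 to -0.25, adjusted p 0.0518 to 0.167).

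COL4A2 was the more abundant of the pair, at 78.9, 91.7 and 93.6 TPM in shAPT1, at 107, 131 and 142 TPM in APT1wt and at 52.5, 58.0 and 55.7 TPM in control libraries. The 3 groups did not overlap. Against control it rose in shAPT1 (0.56 ± 0.08, edgeR, adjusted p = 0.00022) and in APT1wt (1.15 ± 0.08, adjusted p = 3.13e-07), and it was lower in shAPT1 than in APT1wt (-0.59 ± 0.08, adjusted p = 0.000126). The annotations of the 2 genes overlap by 1421 bp on opposite strands, where reads without strand cannot be told apart, and the coding transcripts alone, COL4A1 ENST00000375820.8 (37.9 to 44.6 TPM in shAPT1, 39.1 to 54.9 TPM in APT1wt, 15.7 to 20 TPM in control) and COL4A2 ENST00000360467.5 (70.8 to 81.1, 94.2 to 119 and 42.5 to 52.2 TPM in the same order), were ordered alike.

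The balance between the 2 chains also differed. COL4A1 over COL4A2, in TPM, was 0.59, 0.419 and 0.463 in shAPT1, 0.385, 0.426 and 0.383 in APT1wt and 0.299, 0.346 and 0.36 in control libraries. Every shAPT1 and APT1wt library was above every control library (exact permutation test, two-sided, p = 0.1 for each, the smallest that 3 against 3 libraries can give). In shAPT1 against APT1wt the same exact test gave p = 0.2. Between the longest coding transcripts of the 2 genes the ratio was 0.598, 0.536 and 0.517 in shAPT1, 0.415, 0.463 and 0.489 in APT1wt and 0.37, 0.384 and 0.38 in control libraries. On that basis no 2 groups overlapped, and shAPT1 against APT1wt also gave p = 0.1 in the exact test.

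The other type IV chains were scarce and took different courses. COL4A5, a chain of the kidney and skin basement membranes, had 83, 88 and 90 reads in shAPT1, 52, 36 and 49 in APT1wt and 92, 76 and 83 in control libraries. It was lower in APT1wt than in control (-1.08 ± 0.17, edgeR, adjusted p = 0.000395) and higher in shAPT1 than in APT1wt (0.92 ± 0.17, adjusted p = 0.00133). Neither difference passed with an offset for transcript length (-0.58, adjusted p = 0.432, and 1.00, adjusted p = 0.159), and its TPM values overlapped between groups. COL4A4, which pairs with COL4A3 and COL4A5, had 21, 27 and 21 reads in shAPT1, 53, 38 and 68 in APT1wt and 19, 21 and 30 in control libraries. It was higher in APT1wt than in control (0.97 ± 0.22, edgeR, adjusted p = 0.00548) and lower in shAPT1 than in APT1wt (-1.20 ± 0.22, adjusted p = 0.00123). Its head-to-head neighbour COL4A3 had at most 9 reads in a library, and COL4A6, the neighbour of COL4A5, at most 7, so neither was tested.

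COL8A1, the type VIII chain known from the subendothelium and from remodelled vessel walls, had the reverse order of groups from COL7A1. It stood at 100.4, 127 and 127 TPM in shAPT1, at 45.8, 44.7 and 43.3 TPM in APT1wt and at 64.4, 64.5 and 56.6 TPM in control libraries. Over all transcripts the groups did not overlap, with shAPT1 highest and APT1wt lowest. It was 2.28-fold higher in shAPT1 than in control (1.19 ± 0.10, edgeR, adjusted p = 1.86e-06) and 2.81-fold higher in shAPT1 than in APT1wt (1.49 ± 0.10, adjusted p = 2.56e-07). The lower value in APT1wt than in control missed the threshold (-0.30 ± 0.11, edgeR, adjusted p = 0.0522) and passed in 10 of 21 other settings, among them without control replicate 3 (-0.37, adjusted p = 0.0437) and without shAPT1 replicate 1 (-0.30, adjusted p = 0.0109). The long coding transcript ENST00000261037.7 (5705 nt) stood at 35.5, 42.4 and 43.4 TPM in shAPT1, at 13.5, 11.9 and 12.5 TPM in APT1wt and at 16.9, 13.9 and 13.1 TPM in control libraries. For that transcript, and over all coding transcripts of COL8A1, APT1wt and control overlapped. The coding sum was 26.8 to 32.2 TPM in APT1wt and 28.5 to 41.1 TPM in control libraries. In shAPT1 it lay above both, at 66.1 to 93.6 TPM. The non-coding ENST00000474648.5 (841 nt) followed another order, at 20.3 to 22.1 TPM in shAPT1, 8.70 to 9.81 TPM in APT1wt and 19.1 to 21 TPM in control libraries, where shAPT1 and control overlapped.

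**Figure D3:**
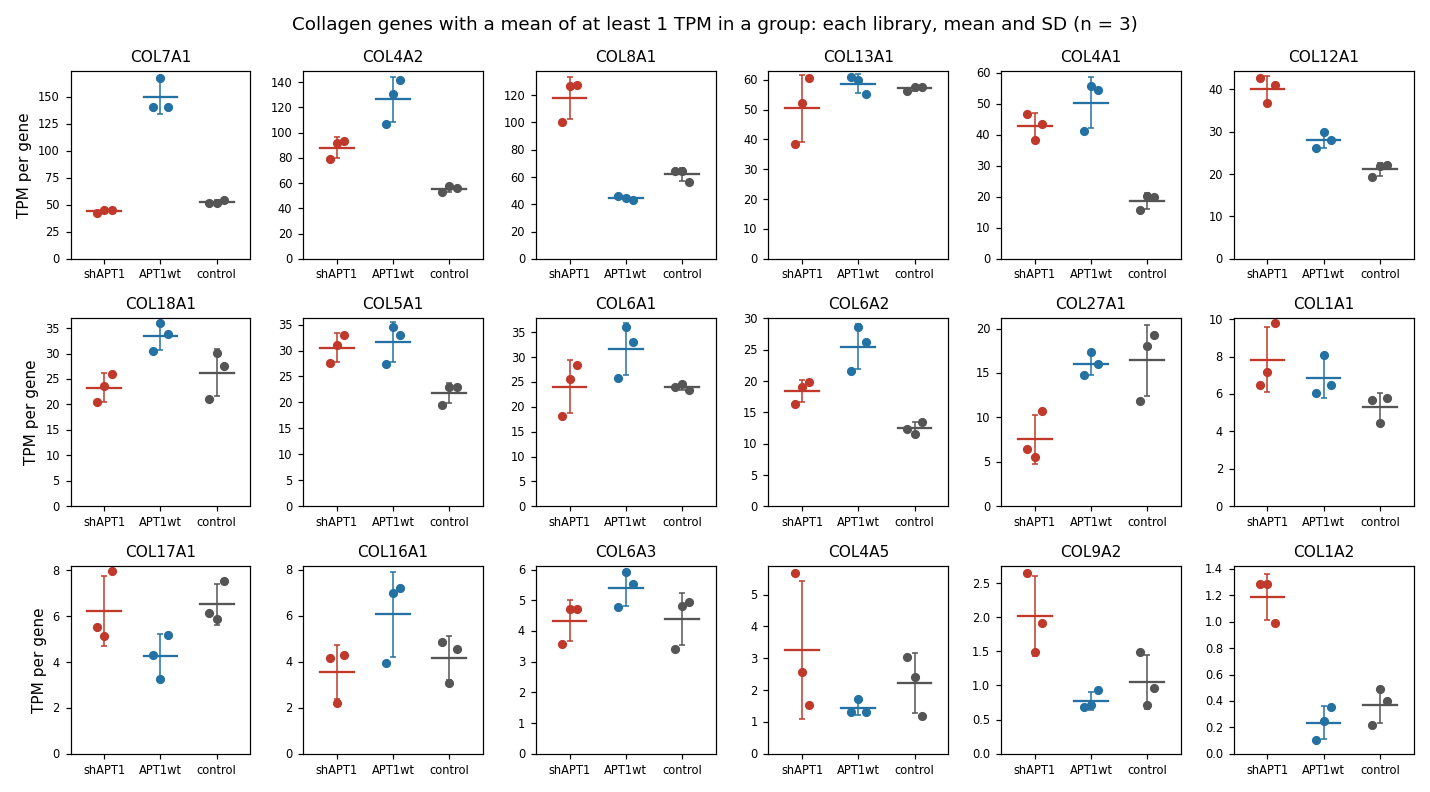
TPM (y axis, each panel with its own scale from 0) of the 18 collagen genes with a mean of at least 1 TPM in a group, in each library of shAPT1, APT1wt and control; lines and bars are mean and SD of 3. COL7A1 is highest in APT1wt, COL8A1 and COL12A1 are highest in shAPT1, and COL4A1 and COL4A2 are lowest in control.

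Of the 11 fibrillar genes 5 were tested. In shAPT1 against control 3 rose and 1 fell, in APT1wt against control 2 rose and 1 fell, and in shAPT1 against APT1wt 2 were higher and 1 lower. COL5A1, a chain of type V collagen, which starts and limits the width of fibrils, stood at 27.5, 31.0 and 33.1 TPM in shAPT1, at 27.4, 34.5 and 33.0 TPM in APT1wt and at 19.5, 22.9 and 22.9 TPM in control libraries. Both manipulated groups lay above control and overlapped each other. It rose by 0.60 ± 0.09 in shAPT1 (edgeR, adjusted p = 0.000259) and by 0.72 ± 0.09 in APT1wt (adjusted p = 5.16e-05) against control, and the difference between shAPT1 and APT1wt was -0.12 with a 95% interval of -0.31 to 0.07.

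COL1A1, the major chain of type I collagen, was low, at 6.49, 7.19 and 9.78 TPM in shAPT1, at 6.05, 8.07 and 6.46 TPM in APT1wt and at 5.69, 4.47 and 5.77 TPM in control libraries. Every shAPT1 and APT1wt library was above every control library. The rises (0.51 ± 0.13 in shAPT1, edgeR, adjusted p = 0.00938, and 0.54 ± 0.13 in APT1wt, adjusted p = 0.00764) did not pass with an offset for transcript length (0.49, adjusted p = 0.0862, and 0.38, adjusted p = 0.196). Much of its TPM came from ENST00000507689.1, a fragment of 549 nt, at 3.50 to 3.95 TPM in shAPT1, 3.09 to 3.45 TPM in APT1wt and 1.55 to 3.07 TPM in control libraries. The full-length ENST00000225964.9 (6727 nt) stood at 2.49 to 2.87, 2.13 to 2.87 and 1.54 to 1.84 TPM in the same groups.

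COL1A2, its partner chain, stood at 1.29, 1.29 and 0.987 TPM in shAPT1, at 0.105, 0.246 and 0.355 TPM in APT1wt and at 0.219, 0.487 and 0.397 TPM in control libraries. The shAPT1 libraries were above all others on few reads, 19 to 59 against 6 to 13 in APT1wt and 9 to 13 in control. COL1A2 was higher in shAPT1 than in control (1.69 ± 0.35, edgeR, adjusted p = 0.00263) and than in APT1wt (2.28 ± 0.36, adjusted p = 0.000408). Over all transcripts COL1A1 therefore exceeded COL1A2 in TPM. The ratio was 5.04 to 9.9 in shAPT1, 18.2 to 57.7 in APT1wt and 9.17 to 25.9 in control libraries. Control overlapped shAPT1 and APT1wt (exact permutation test, two-sided, p = 0.2 for each), and shAPT1 against APT1wt gave p = 0.1. The type I heterotrimer holds 2 chains of the first and 1 of the second. These ratios do not measure that balance, since much of the COL1A1 TPM came from the 549 nt fragment. Full-length COL1A1 alone stood at 2.49 to 2.87, 2.13 to 2.87 and 1.54 to 1.84 TPM in shAPT1, APT1wt and control.

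COL27A1, a fibrillar chain known from cartilage, ran the other way, at 6.42, 5.53 and 10.7 TPM in shAPT1, at 14.8, 17.4 and 16.0 TPM in APT1wt and at 11.9, 18.02 and 19.3 TPM in control libraries. All shAPT1 libraries lay below the other 6. It was lower in shAPT1 than in control (-0.79 ± 0.12, edgeR, adjusted p = 0.000229) and than in APT1wt (-0.89 ± 0.12, adjusted p = 8.01e-05), while APT1wt against control was 0.10 ± 0.11 (adjusted p = 0.577). COL5A2, the other common type V chain, had a mean TPM under 1 in each group. Its reads were 54 to 67 in shAPT1, 19 to 45 in APT1wt and 40 to 55 in control libraries. COL5A2 was lower in APT1wt than in control (-0.75 ± 0.25, edgeR, adjusted p = 0.0469) and higher in shAPT1 than in APT1wt (0.78 ± 0.25, adjusted p = 0.0347). Neither call held with DESeq2 (-0.76, adjusted p = 0.0691, and 0.79, adjusted p = 0.0568) or with coding transcripts only (-0.74, adjusted p = 0.0778, and 0.77, adjusted p = 0.0604). The first was also lost with limma-voom (-0.70, adjusted p = 0.0699). The first call was lost without control replicate 1 or 2, shAPT1 replicate 2 or 3 or APT1wt replicate 2 or 3 (-0.76 to -0.59, adjusted p 0.0509 to 0.17), and the second without shAPT1 replicate 1 or 3 or APT1wt replicate 2 or 3 (0.62 to 0.79, adjusted p 0.0693 to 0.127).

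Of the 5 type VI genes the 3 classic chains, which assemble together, were tested, and all 3 were higher in APT1wt than in control and lower in shAPT1 than in APT1wt. COL6A2 stood at 16.4, 19.0 and 19.8 TPM in shAPT1, at 21.5, 28.7 and 26.3 TPM in APT1wt and at 12.3, 11.6 and 13.5 TPM in control libraries. The 3 groups did not overlap. It was 2.07-fold higher in APT1wt than in control (1.05 ± 0.11, edgeR, adjusted p = 1.06e-05), also higher in shAPT1 than in control (0.51 ± 0.11, adjusted p = 0.00429), and lower in shAPT1 than in APT1wt (-0.54 ± 0.11, adjusted p = 0.00199).

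COL6A1 stood at 18.1, 25.5 and 28.4 TPM in shAPT1, at 25.8, 36.0 and 33.0 TPM in APT1wt and at 24.0, 24.5 and 23.4 TPM in control libraries. APT1wt lay above control, and shAPT1 spread across control. Its rise in APT1wt (0.45 ± 0.13, edgeR, adjusted p = 0.0209) was lost without control replicate 1 or 2 or APT1wt replicate 2 or 3 (0.37 to 0.46, adjusted p 0.0573 to 0.0964). Its lower value in shAPT1 than in APT1wt (-0.39 ± 0.13, adjusted p = 0.0371) was lost without control replicate 2 or 3, shAPT1 replicate 1 or 2 or APT1wt replicate 2 or 3 (-0.42 to -0.23, adjusted p 0.0511 to 0.153). Neither call held under the length offset (0.41, adjusted p = 0.0895, and -0.46, adjusted p = 0.0526).

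COL6A3, the largest chain, stood at 3.56 to 4.72 TPM in shAPT1, 4.78 to 5.93 TPM in APT1wt and 3.42 to 4.95 TPM in control libraries. Its rise in APT1wt (0.53 ± 0.15, edgeR, adjusted p = 0.0214) was lost without control replicate 1 or APT1wt replicate 2 or 3 (0.38 to 0.56, adjusted p 0.0511 to 0.103), and its lower value in shAPT1 than in APT1wt (-0.49 ± 0.15, adjusted p = 0.0286) without shAPT1 replicate 1 or APT1wt replicate 2 or 3 (-0.51 to -0.32, adjusted p 0.0606 to 0.11). With the length offset they were 0.32 (adjusted p = 0.187) and -0.39 (adjusted p = 0.0987). Transcripts annotated as retaining an intron averaged 53.5% of the COL6A3 TPM in shAPT1, 37.7% in APT1wt and 49.9% in control. The coding ENST00000353578.8 was at 1.25 to 1.42 TPM in shAPT1, 1.83 to 2.63 TPM in APT1wt and 0.55 to 2.06 TPM in control libraries. The intron-retaining ENST00000491769.1 averaged 2.09, 1.95 and 1.70 TPM in the same order.

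COL6A1 over COL6A2, in TPM, was 1.11, 1.34 and 1.43 in shAPT1, 1.2, 1.25 and 1.26 in APT1wt and 1.94, 2.12 and 1.74 in control libraries. Every shAPT1 and APT1wt library was below every control library (exact permutation test, two-sided, p = 0.1 for each, the smallest possible), whereas shAPT1 and APT1wt overlapped (p = 0.7). In the longest coding transcripts the ratio averaged 1.14 in shAPT1, 1.01 in APT1wt and 1.67 in control cells.

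Among the 10 FACIT genes 3 were tested. COL12A1, which lies along type I fibrils, stood at 42.7, 36.7 and 40.9 TPM in shAPT1, at 26.2, 29.9 and 28.0 TPM in APT1wt and at 19.4, 21.8 and 22.2 TPM in control libraries. No groups overlapped. It was the only tested collagen gene that was higher in shAPT1 than in control (0.82 ± 0.08, edgeR, adjusted p = 6.95e-06), higher in APT1wt than in control (0.44 ± 0.08, adjusted p = 0.00156) and higher in shAPT1 than in APT1wt (0.39 ± 0.08, adjusted p = 0.00307).

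COL9A2, a type IX chain known from cartilage, had 29, 28 and 33 reads in shAPT1, 14, 13 and 19 in APT1wt and 14, 14 and 19 in control libraries. It was higher in shAPT1 than in APT1wt (0.95 ± 0.26, edgeR, adjusted p = 0.0157), a call lost without APT1wt replicate 1 (0.84, adjusted p = 0.064), with DESeq2 (0.96, adjusted p = 0.085) and with coding transcripts only (0.69, adjusted p = 0.214). Against control it was 0.73 ± 0.26 in shAPT1 (adjusted p = 0.0562), and that difference passed in 3 of the other settings, with an adjusted p of 0.0275 to 0.0496. COL16A1, a FACIT found near several fibril types, was lower in shAPT1 than in APT1wt (-0.86 ± 0.18, edgeR, adjusted p = 0.0035). It stood at 2.19 to 4.28 TPM in shAPT1, 3.94 to 7.21 TPM in APT1wt and 3.08 to 4.84 TPM in control libraries, so that its groups overlapped. The call was lost with coding transcripts only (-0.89, adjusted p = 0.0789), with the length offset (-0.89, adjusted p = 0.0629) and in the deposited table (-0.86, adjusted p = 0.0751). Against control it was 0.48 ± 0.18 in APT1wt (adjusted p = 0.0686), which passed without APT1wt replicate 1 (0.66, adjusted p = 0.014).

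Of the 4 tested transmembrane and multiplexin collagens none passed in all 3 comparisons. COL13A1, found at cell adhesions, was among the most abundant collagens, at 38.3, 52.1 and 60.7 TPM in shAPT1, at 61.0, 59.8 and 55.1 TPM in APT1wt and at 56.1, 57.7 and 57.5 TPM in control libraries. The groups overlapped, and shAPT1 replicate 1 was the lowest. It passed in none of the 3 comparisons (shAPT1 against control -0.29 ± 0.13, edgeR, adjusted p = 0.123). Without shAPT1 replicate 3 it passed in shAPT1 against control (-0.43, adjusted p = 0.0201) and in shAPT1 against APT1wt (-0.49, adjusted p = 0.0103). It also passed in both when low counts were kept (-0.28, adjusted p = 0.00457; -0.36, adjusted p = 7.95e-05). In shAPT1 against APT1wt it passed as well with DESeq2 (adjusted p = 0.0326), with limma-voom (adjusted p = 0.0492) and with the GC and length correction (adjusted p = 0.0335).

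COL17A1, the hemidesmosomal collagen of epithelia, was at 5.53, 5.15 and 7.96 TPM in shAPT1, at 4.30, 3.27 and 5.20 TPM in APT1wt and at 6.13, 5.90 and 7.54 TPM in control libraries. APT1wt lay below control, and shAPT1 spread across control. It was lower in APT1wt than in control (-0.76 ± 0.16, edgeR, adjusted p = 0.00297). In shAPT1 its reads were lower than in control by little (-0.45 ± 0.15, adjusted p = 0.0456), a call lost in 13 of 21 other settings, including without control replicate 2 or 3, shAPT1 replicate 2 or 3 or APT1wt replicate 2 or 3 (-0.45 to -0.34, adjusted p 0.0535 to 0.205). With an offset for transcript length the 2 differences were -0.60 in APT1wt (adjusted p = 0.0603) and -0.15 in shAPT1 (adjusted p = 0.678).

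COL18A1, the precursor of endostatin in vascular and epithelial basement membranes, stood at 20.4, 23.6 and 25.9 TPM in shAPT1, at 30.6, 35.9 and 33.9 TPM in APT1wt and at 21.1, 30.1 and 27.6 TPM in control libraries. APT1wt lay above all other libraries. It was higher in APT1wt than in control (0.55 ± 0.10, edgeR, adjusted p = 0.00125) and lower in shAPT1 than in APT1wt (-0.56 ± 0.10, adjusted p = 0.001), while shAPT1 against control was -0.01 with a 95% interval of -0.23 to 0.21. The rise in APT1wt missed the threshold with an offset for transcript length (0.37, adjusted p = 0.0521). Its annotation overlaps that of SLC19A1, on the opposite strand, which averaged 1.03 TPM in shAPT1, 1.46 TPM in APT1wt and 0.831 TPM in control cells. COL15A1, the other multiplexin, had 11 to 31 reads a library and passed in no comparison.

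The remaining 23 collagen genes were too scarce to test. Of these, 18 had at most 1 to 11 reads in any library, COL28A1 being the best covered, with up to 11. COL3A1, the fibrillar chain that usually accompanies type I in stroma, had 0, 3 and 6 reads in shAPT1, 0 in each APT1wt library and 1 in each control library. COL2A1, COL6A5, COL22A1, COL23A1 and COL26A1 had no read in any of the 9 libraries, where a count of 0 allows up to 3 reads, or 0.161 to 0.242 CPM (counts scaled by library size). Such genes were not detectable at this depth, and the limit covers counting error only.

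These shifts changed the makeup of the collagen RNA as well as its sum. COL7A1 made up 8.05% to 8.96% of the collagen TPM in shAPT1, 22.1% to 25% in APT1wt and 12.8% to 13.7% in control libraries. COL8A1 made up 21.3% to 24.2% in shAPT1, 6.65% to 8.09% in APT1wt and 14.1% to 17.1% in control libraries. In order of mean TPM, COL7A1 was the first collagen gene in APT1wt, where it overlapped COL4A2, and COL8A1 was the first in shAPT1, clear of COL4A2. In control cells COL8A1, COL13A1, COL4A2 and COL7A1 stood next to each other at means of 52.8 to 61.9 TPM, each overlapping its neighbour in that order. That order rests on transcripts of every kind. Over coding transcripts alone COL8A1 overlapped COL4A2 in shAPT1, at means of 84.0 and 82.2 TPM, COL4A2 was clear of COL7A1 in APT1wt, at 118 and 57.4 TPM, and COL7A1 was sixth in control, at 18.7 TPM. The coding transcripts of COL7A1 made up 11.5% to 13.5% of the coding collagen TPM in APT1wt libraries and 6.38% to 6.99% in control libraries. The 6 type IV genes together took 24.7% to 28.0% in shAPT1, 26.4% to 31.2% in APT1wt and 19.1% to 19.9% in control libraries. The fibrillar genes took 8.81% to 9.94%, 8.75% to 9.04% and 10.2% to 12.4% in the same groups.

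**Figure D4:**
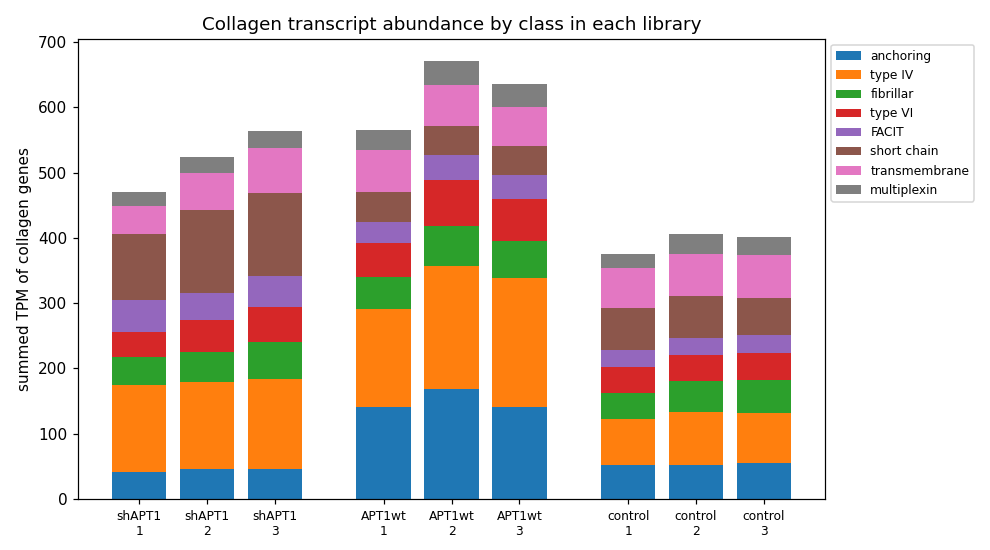
Summed TPM of collagen genes (y axis) in each library (x axis), stacked by class. Type IV and the anchoring collagen COL7A1 make up the larger part of the APT1wt bars, and the short-chain class, which is almost all COL8A1, is widest in shAPT1, at 100.5 to 127 TPM, against 56.7 to 64.6 TPM in control.

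Genes that fold, secrete, process, cross-link or bind collagen passed in shares close to those of all genes. Of 60 such genes 45 were tested. In shAPT1 against control 7 were higher and 4 lower (24.4% of the tested ones), in APT1wt against control 7 higher and 4 lower (24.4%), and in shAPT1 against APT1wt 5 higher and 4 lower (20%), where 24.4%, 23.4% and 25.1% of all tested genes passed. Without shAPT1 replicate 3 the last count was 14. The median log2 fold changes were 0.05 in shAPT1 against control, 0.10 in APT1wt against control and -0.05 in shAPT1 against APT1wt.

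LOX, the lysyl oxidase that starts collagen cross-links, was higher in both manipulated groups, at 26.1, 18.3 and 22.9 TPM in shAPT1, at 17.6, 16.2 and 16.2 TPM in APT1wt and at 8.58, 9.56 and 8.85 TPM in control libraries. The 3 groups did not overlap. It rose by 1.17 ± 0.11 in shAPT1 (edgeR, adjusted p = 5.91e-06) and by 0.92 ± 0.11 in APT1wt (adjusted p = 5.33e-05) against control, and was the only one of the 5 cross-linking genes to pass in either comparison.

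Among the 18 folding and modification genes, the prolyl 3-hydroxylase P3H2, known to act on type IV chains, stood at 64.3, 59.8 and 58.0 TPM in shAPT1, at 38.3, 36.0 and 36.4 TPM in APT1wt and at 28.8, 26.8 and 30.5 TPM in control libraries, in 3 groups that did not overlap. P3H2 was higher in shAPT1 than in control (0.75 ± 0.07, edgeR, adjusted p = 5.33e-06) and than in APT1wt (0.52 ± 0.07, adjusted p = 0.000126). Its smaller rise in APT1wt against control (0.23 ± 0.07, adjusted p = 0.0368) was lost in 8 of 21 other settings. Of the lysyl hydroxylases, PLOD2, which acts on the telopeptides, rose by 0.57 ± 0.08 in APT1wt against control (edgeR, adjusted p = 0.000221). It also rose in shAPT1 against control (0.33 ± 0.08, adjusted p = 0.00958), and not with the length offset (0.31, adjusted p = 0.0535). PLOD3, which also glucosylates, was lower in shAPT1 (-0.47 ± 0.08, adjusted p = 0.00087) and in APT1wt (-0.41 ± 0.08, adjusted p = 0.00226) than in control. The galactosyltransferase COLGALT2 averaged 2.67 TPM in shAPT1, 1.20 TPM in APT1wt and 2.04 TPM in control cells. It was higher in shAPT1 than in APT1wt (1.21 ± 0.20, edgeR, adjusted p = 0.000586) and lower in APT1wt than in control (-0.88 ± 0.21, adjusted p = 0.00735), the second of these lost without control replicate 3 (-0.66, adjusted p = 0.0518) and with the length offset (-0.77, adjusted p = 0.0568).

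The prolyl 3-hydroxylase P3H3 stood at 0.679 to 1.01 TPM in shAPT1, 0.76 to 2.21 TPM in APT1wt and 1.49 to 1.95 TPM in control libraries. It was lower in shAPT1 than in control (-1.37 ± 0.37, edgeR, adjusted p = 0.0144), lost without control replicate 3 (-1.29, adjusted p = 0.0546) and with the length offset (-1.06, adjusted p = 0.0775). It was also lower in shAPT1 than in APT1wt (-1.10 ± 0.37, adjusted p = 0.0431), lost without any 1 of 7 libraries, the 3 of control, shAPT1 replicates 1 and 2 and APT1wt replicates 2 and 3 (-1.14 to -0.78, adjusted p 0.0577 to 0.157).

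Of the 7 tested genes for leaving the endoplasmic reticulum, SEC23A, a coat subunit of the COPII vesicles that carry procollagen, rose by 0.61 ± 0.06 in shAPT1 (edgeR, adjusted p = 1.27e-05) and by 0.47 ± 0.06 in APT1wt (adjusted p = 0.00013) against control. MIA3, the receptor TANGO1 that loads procollagen VII and other collagens into these vesicles, stood at 71.4, 62.7 and 61.3 TPM in shAPT1, at 47.0, 45.4 and 53.5 TPM in APT1wt and at 42.2, 50.9 and 57.8 TPM in control libraries. MIA3 was higher in shAPT1 than in control (0.45 ± 0.07, edgeR, adjusted p = 0.000262) and than in APT1wt (0.32 ± 0.07, adjusted p = 0.00341). Neither passed with the length offset (0.31, adjusted p = 0.0755, and 0.34, adjusted p = 0.0518). PREB, which activates the coat's GTPase, was lower in APT1wt than in control (-0.47 ± 0.08, edgeR, adjusted p = 0.00124). It was also lower in shAPT1 than in control (-0.29 ± 0.08, adjusted p = 0.023), lost without control replicate 1 or 2 or shAPT1 replicate 2 (-0.29 to -0.24, adjusted p 0.0583 to 0.0958). That call was lost too with the length offset (-0.21, adjusted p = 0.145) and in the deposited table (-0.22, adjusted p = 0.144). None of the 5 tested propeptide-processing genes passed in any comparison.

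Of the 8 tested receptors, ITGA2, the collagen-binding integrin subunit of epithelia, stood at 31.2, 27.6 and 30.1 TPM in shAPT1, at 19.4, 20.2 and 18.5 TPM in APT1wt and at 14.3, 20.7 and 19.6 TPM in control libraries. Every shAPT1 library was above the other 6. It was higher in shAPT1 than in control (0.63 ± 0.09, edgeR, adjusted p = 0.000174) and than in APT1wt (0.53 ± 0.09, adjusted p = 0.000656). MRC2, the receptor that takes up collagen for breakdown, was higher in APT1wt than in control (0.57 ± 0.08, edgeR, adjusted p = 0.000221) and lower in shAPT1 than in APT1wt (-0.65 ± 0.08, adjusted p = 6.99e-05). With an offset for transcript length its differences were 0.26 (adjusted p = 0.417) and -0.58 (adjusted p = 0.0569). DDR1, a receptor kinase for collagen, rose in APT1wt against control (0.48 ± 0.12, edgeR, adjusted p = 0.00933), and not with that offset (0.36, adjusted p = 0.286). TNXB, a tenascin that binds fibrils, was at 0.373, 0.982 and 0.547 TPM in shAPT1, at 2.06, 2.82 and 2.05 TPM in APT1wt and at 0.937, 0.628 and 1.06 TPM in control libraries. APT1wt lay above the other 6 libraries (1.13 ± 0.21 against control, edgeR, adjusted p = 0.00167, and -1.50 ± 0.22 for shAPT1 against APT1wt, adjusted p = 0.000201).

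**Figure D5:**
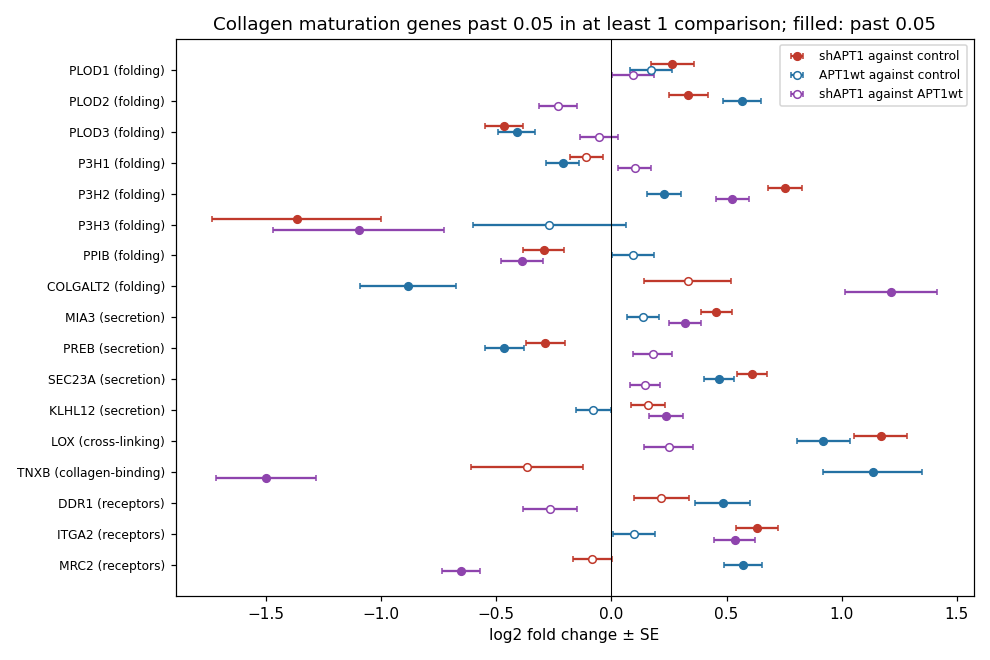
Log2 fold change ± SE (x axis) of the 17 collagen maturation genes that passed in at least 1 comparison (rows, with sublist); filled points passed an adjusted p of 0.05. LOX and SEC23A lie above 0 in both comparisons with control, and PLOD3 lies below 0 in both.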

How the data were processed

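The authors sequenced total RNA in 9 libraries of MDA-MB-231 cells, numbered within groups by the sample labels. FastQC, Salmon and DESeq2 are named without versions, with build GRCh38.p10, per the submitters' processing notes. The deposited Salmon files hold estimated counts (expected counts), TPM and effective lengths for 199324 transcripts. The deposited gene table holds a signal that the authors scaled between libraries in a way not given in the sources used here. Intron-retaining and other non-coding transcripts of a gene were summed with its coding ones, and read strand is not given in the sources used here.

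Estimated counts were summed per gene and rounded, and levels are given as gene-summed TPM. Genes kept by edgeR's filterByExpr were scaled by TMM and tested with the quasi-likelihood test in 1 fit of all 9 libraries (edgeR 4.0.16, limma 3.58.1, R 4.3.3), with Benjamini-Hochberg adjustment over all 15233 tested genes. The SE was taken from the log2 fold change and its F statistic. Ratios of 2 chains were compared with exact permutation tests. The test was tried on simulated counts. Positions came from GENCODE 29, which matched all 44 collagen genes, and promoters from RefSeq (GRCh38.p14). Python 3.11.15, numpy 2.4.6, pandas 2.3.3, scipy 1.17.1 and matplotlib 3.10.9 were used. Alternatives were RLE scaling, library totals, DESeq2 1.42.0, limma-voom, no filter and a filter of 20 reads in 3 libraries, a transcript length offset, coding transcripts only, the deposited table (limma on log2 of the signal plus 0.5), fits of the 2 groups compared, a replicate block, and leaving out each library. A loess correction for GC content and length, the share called among genes with at least 500 reads, and the choice of settings quoted were added after the data were seen.

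Any collagen gene could be named, with COL7A1 in every comparison, and values by library were due for genes past 0.05 with a mean of at least 1 TPM in a group. From each list of maturation genes up to 3 per comparison were eligible, those with the largest change among genes past 0.05 with a mean of at least 1 TPM in a group. The collagen genes, their classes and all other lists were chosen with earlier results of these data known.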

Additional observations from a re-analysis of the deposited data

How the results depend on the processing

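Of the 41 differences among collagen genes that passed, 24 passed in each of the 21 other settings that tested the gene (8 of 11 in shAPT1 against control, 7 of 14 in APT1wt against control, 9 of 16 in shAPT1 against APT1wt). In APT1wt against control 9 collagen genes passed with an offset for transcript length and 9 in the deposited table, in place of 14. The maturation genes that passed were 6 with the offset and 7 in the deposited table in shAPT1 against control (in place of 11), 7 and 7 in APT1wt against control (in place of 11), and 5 and 5 in shAPT1 against APT1wt (in place of 9), where the GC and length correction gave 14. The offset and the deposited table also passed fewer of all genes, 2230 to 2373 in a comparison. Leaving out 1 library gave 10 to 11, 11 to 15 and 12 to 16 collagen genes and 8 to 13, 8 to 15 and 7 to 14 maturation genes in the 3 comparisons, in that order. No difference that passed changed sign. Signs of some differences that did not pass did change, not all of them near 0, and the cause was not tested. With library totals these were COL18A1 in shAPT1 against control (0.018) and COL1A1 in shAPT1 against APT1wt (0.035). With the length offset they were COL6A1 (-0.055), COL6A3 (-0.071), COL4A5 (0.42, from -0.16 in the reported fit) and COL5A2 (-0.0043) in shAPT1 against control, COL27A1 in APT1wt against control (-0.013) and COL1A1 in shAPT1 against APT1wt (0.12). The deposited table gave -0.086, -0.075, 0.38 and -0.0027 for the first 4 and 0.097 for COL1A1. With coding transcripts only they were COL6A3 (-0.074) and COL15A1 (0.042) in shAPT1 against control and COL9A2 in APT1wt against control (0.048), and with limma-voom COL15A1 (0.041). The GC and length correction gave 0.16 for COL18A1 and -0.067 for COL5A2 in shAPT1 against control, -0.022 for COL27A1 in APT1wt against control, and 0.14 for COL1A1 and 0.13 for COL5A1 in shAPT1 against APT1wt. Leaving out 1 library gave, in shAPT1 against control, -0.077 to 0.21 for COL6A1, -0.10 to 0.21 for COL6A3, -0.098 to 0.082 for COL18A1, -0.19 to 0.18 for COL5A2 and -0.32 to 0.32 for COL15A1, and -0.024 to 0.18 for COL27A1 in APT1wt against control and -0.14 to 0.036 for COL1A1 in shAPT1 against APT1wt. The labels do not say what the replicate numbers stand for. Deviations of same-numbered libraries correlated at -0.051 to 0.103, the highest just above the 0.1 taken as the minimum for pairing. Whether libraries of the same number shared a batch was not tested. With a replicate block 11, 15 and 16 collagen genes and 11, 14 and 13 maturation genes passed; the added collagen gene in APT1wt against control was COL16A1 (0.48, adjusted p = 0.0469). Few reads limit COL1A2, COL4A4, COL9A2, COL15A1 and P3H3, and the 23 untested genes. COL5A2, COL4A5 and COL16A1 were also thinly read, at means of 48, 72 and 76 reads a library.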
